A study of Mus musculus with 6 samples.

Results

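The genes described here encode the core of the proteasome in mouse hippocampus. They are all genes of the count tables whose symbol begins with Psma, Psmb, Psmc or Psmd followed by a number, without pseudogenes and without Psmb5 to Psmb10, which encode the catalytic subunits. Of 54752 genes in the tables, 34 met this rule, out of 44 symbols that begin in this way. They comprise 33 proteasome genes and Psmc3ip, a meiotic recombination factor that only shares the start of its symbol. Bulk RNA-seq was performed on the whole right hippocampus of 6 male C57BL/6 wild-type (WT) mice aged 14 weeks. The strain is named C57BL/6 J in the study's methods. Tissue was taken at 3 weeks after surgery, with 1 library per mouse. In the 3 bilateral carotid artery stenosis (BCAS) mice a microcoil was placed around each common carotid artery, the narrower coil on the right, to lower cerebral blood flow for a long period. The 3 sham mice underwent the same operation without coils, so anaesthesia and exposure of the arteries were common to both groups. The comparison asks how the transcripts of the proteasome stood in a hippocampus with chronic hypoperfusion.

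The proteasome degrades proteins that carry a ubiquitin chain. Its 20S core is a barrel in which the outer alpha rings form the gate and the inner beta rings hold the proteolytic sites. The 19S particle on its ends consists of a base, in which AAA ATPases unfold substrates, and a lid that removes the ubiquitin chain. Neurons depend on it for protein turnover at synapses. In inflamed tissue the catalytic subunits Psmb5, Psmb6 and Psmb7 can be replaced by the immunoproteasome subunits Psmb8, Psmb9 and Psmb10, while the core genes studied here serve both forms. Transcription of the subunit genes is held together in part by Nfe2l1, which binds antioxidant response elements.

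The libraries held 29652456 to 35607098 assigned counts, and each of the 3 sham totals was above each of the 3 BCAS totals. The 34 genes took 0.242%, 0.254% and 0.268% of these counts in sham mice 1 to 3 and 0.226%, 0.240% and 0.230% in BCAS mice 1 to 3. Mitochondrially encoded genes took 6.90%, 6.92% and 6.99% in sham and 6.07%, 6.56% and 6.02% in BCAS mice, which also separated the groups, with sham mouse 3 and BCAS mouse 2 the highest of their groups for both shares. The part of this share in the values of the members was not tested. Expression is given as CPM (counts relative to the library total, scaled by TMM factors), or as TPM (which also divides by exonic length) where genes are compared with each other. Of the 34 genes, 33 passed the low-count filter and entered the test, the quasi-likelihood fit of edgeR, among 18617 genes. In RNA of whole tissue, fewer cells of a type and less RNA per cell cannot be told apart. In stained sections of BCAS mice, the study described atrophy of the right hippocampus and marked loss of neurons in CA1 and the dentate gyrus. The summed CPM of 10 neuron markers was 7543 to 8176 in sham and 4330 to 6125 in BCAS mice, with 8 of the 10 lower at an adjusted P under 0.05. That of 11 microglia and macrophage markers was 379 to 399 in sham and 2634 to 4344 in BCAS mice (11 of 11 higher). For 8 astrocyte markers it was 4479 to 4759 and 9554 to 10077 (7 of 8 higher). No marker of these 3 lists had a mean of 0 in either group. The part of these shifts in the values of the proteasome genes was not tested.

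Sequences upstream of 4 of the genes are shown first, 3 from genes that passed the test (Psmc1, Psmd12 and Psmd14) and, as a contrast, that of Psmd11, whose difference was the smallest. They are printed 5′ to 3′ on the strand of the gene from RefSeq windows of the 250 bases before the start (GRCm38.p6), without bases that lie in an annotated exon. Capitals mark CTTCCG, the reverse complement of CGGAAG, the core of sites bound by ETS factors. Psmc1 is shown at chr12:100109952-100110153, Psmd12 at chr11:107479278-107479483, Psmd14 at chr2:61711444-61711693 and Psmd11 at chr11:80428365-80428614, all on the plus strand.
Psmc1: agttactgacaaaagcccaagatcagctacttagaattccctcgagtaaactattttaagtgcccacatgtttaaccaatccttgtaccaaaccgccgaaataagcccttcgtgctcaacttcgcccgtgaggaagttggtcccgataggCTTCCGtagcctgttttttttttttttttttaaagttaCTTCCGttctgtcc
Psmd12: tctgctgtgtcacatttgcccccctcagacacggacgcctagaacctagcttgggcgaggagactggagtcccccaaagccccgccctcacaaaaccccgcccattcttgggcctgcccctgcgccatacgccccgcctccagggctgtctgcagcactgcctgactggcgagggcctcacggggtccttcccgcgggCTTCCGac
Psmd14: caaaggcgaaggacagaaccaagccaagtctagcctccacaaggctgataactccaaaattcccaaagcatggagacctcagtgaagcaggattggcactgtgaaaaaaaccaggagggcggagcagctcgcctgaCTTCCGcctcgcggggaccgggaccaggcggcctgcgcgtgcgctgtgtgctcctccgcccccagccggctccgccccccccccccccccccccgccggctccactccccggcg
Psmd11: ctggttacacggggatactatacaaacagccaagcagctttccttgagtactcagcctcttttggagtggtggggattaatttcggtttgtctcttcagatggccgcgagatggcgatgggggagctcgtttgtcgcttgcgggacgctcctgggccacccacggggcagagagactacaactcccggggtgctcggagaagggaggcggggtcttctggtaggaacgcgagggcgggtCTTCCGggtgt

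A window was found for 27 of the 33 proteasome genes. CGGAAG, searched on both strands, occurred in 16 of the 27 (59.3%), against 15.3% of 27025 genes with a window and 24.8% of the 12901 tested genes with one. The NF-Y box CCAAT, on either strand, occurred in 12 of 27 (44.4%), against 37.5% of all and 39.5% of tested genes. The antioxidant response element TGACNNNGC, on either strand, occurred in 3 of 27 (11.1%; Psmc6, Psmd12 and Psmd9), against 11.5% and 13.7%. A match of one of these motifs cannot contain a match of another, although neighbouring matches can share end letters. The ETS core was present in 4 of the 6 genes with a window that passed the test and in 11 of 20 tested genes that did not. The motif therefore stood in front of genes on both sides of the threshold, as the printed sequences of Psmd14 and Psmd11 also show. These matches are descriptions of the letters and not of bound sites.

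The per-length levels of the genes spanned a wide range in sham mice, and the order was similar in both groups. The ATPase gene Psmc5 was highest, at 302 ± 7.80 TPM (SD, n = 3) in sham and 258 ± 16.3 TPM in BCAS mice. Next in sham mice were Psmc1, also an ATPase of the 19S base (229 ± 3.08 TPM), the beta subunit Psmb4 (217 ± 15.8 TPM), the alpha subunit Psma6 (203 ± 14.7 TPM) and the ATPase Psmc3 (170 ± 9.25 TPM). The large scaffold gene Psmd2 followed at 160 ± 3.50 TPM and the lid gene Psmd7 at 145 ± 6.11 TPM. A broad middle held Psmb2 (138 TPM), Psma5 (127), Psmc4 (114), Psma4 (99.1), Psmd14 (98.2), Psmd4 (98.0), Psmd8 (95.1), Psma7 (94.1), Psma1 (94.0), Psmc6 (91.4), Psmb1 (91.4), Psmd6 (90.4), Psmd12 (85.0) and Psmd3 (83.3). Lower still were Psmb3 (71.2 TPM), Psma2 (71.0), Psmd13 (66.7), Psma3 (61.2), Psmc2 (58.1) and Psmd1 (45.9).

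At the lower end stood the assembly chaperones of the 19S particle, which leave it before it is complete, Psmd10 (32.7 ± 0.972 TPM), Psmd5 (28.4 ± 1.09 TPM) and Psmd9 (11.3 ± 0.0755 TPM). The lid gene Psmd11 lay among them at 27.4 ± 0.839 TPM. Of the 33 pairs of neighbours in the sham order, 22 overlapped between mice and 11 did not, so that most neighbours could not be ordered. Psmd14, in place 12 of the sham order, took place 18 in the BCAS order, the longest move among the 34 genes. Places 12 to 18 of the sham order spanned only 98.2 to 91.4 TPM, and each overlapped with the next. Reads on bases that a gene shares with an exon of another gene were not assigned, which touched 25.5% of the exonic bases of Psmd9, 21.2% of Psmc3ip, 10.1% of Psmd13, 8.25% of Psmc3 and 7.61% of Psmd1, and under 5% in 3 others (Psma4, Psma5 and Psmd3).

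**Figure D1:**
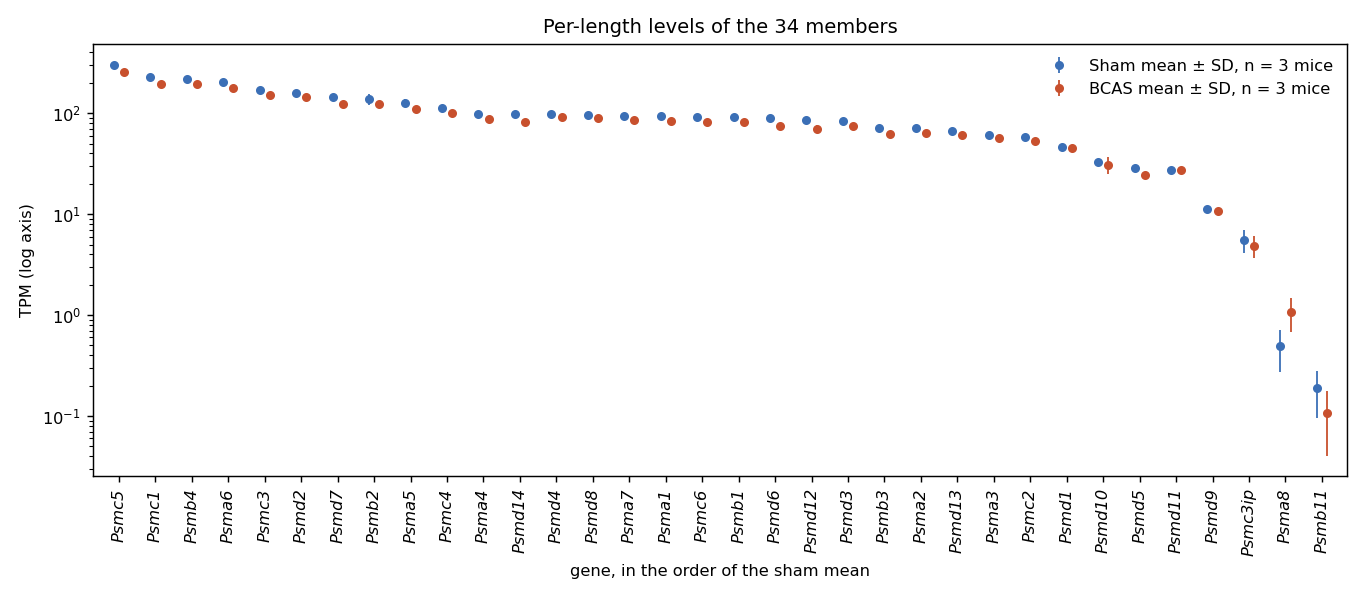
Level per exonic length of the 34 genes in TPM (log axis), ordered by the sham mean, with points for the mean of 3 sham and 3 BCAS mice and bars for the SD. Most genes lie between 45.9 and 302 TPM in sham mice, while Psmc3ip, Psma8 and Psmb11 stand far below.

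Germ-cell and thymic members were near the limit of detection. Psma8, the alpha subunit of germ cells, had 0.413, 0.180 and 0.496 CPM in sham mice 1 to 3 and 1.08, 0.530 and 0.705 CPM in BCAS mice 1 to 3, where 3 counts correspond to 0.0875 to 0.0995 CPM. Its BCAS values lay above its sham values, but its log2 fold change of 1.08 (SE 0.48, 95% interval -0.02 to 2.18) did not pass the test (edgeR, adjusted P = 0.124). Psmb11, the catalytic subunit of thymic epithelium, was removed by the filter and not tested, with 7, 14 and 6 counts (0.207, 0.419 and 0.175 CPM) in sham mice and 8, 2 and 4 counts (0.246, 0.0663 and 0.128 CPM) in BCAS mice, and the groups overlapped. Psmc3ip had 2.04, 3.50 and 3.44 CPM in sham and 2.95, 1.89 and 2.73 CPM in BCAS mice, which overlapped, with a log2 fold change of -0.24 (SE 0.28).

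In BCAS mice 7 of the 33 tested genes fell and 0 rose (edgeR, adjusted P under 0.05). The number that rose was also 0 at an unadjusted P under 0.05 and with DESeq2 or limma-voom. They were the lid genes Psmd14, Psmd6, Psmd12 and Psmd7, the ATPase genes Psmc1 and Psmc5 and the chaperone gene Psmd5, with levels 16.1% to 20.7% lower. The 7 are 21.2% of the tested members, where 13.2% of all tested genes were lower and 18.0% higher at the same threshold (31.3% in either direction). None passed the additional threshold of an absolute log2 fold change above 1, which 9.46% of all tested genes did (0.999% lower and 8.47% higher), and none did with DESeq2 or limma-voom. At an unadjusted P under 0.05, 22 of 33 (66.7%) were lower, against 19.4% of all tested genes. The log2 fold change was below 0 in 32 of 33 (97%, all but Psma8), against 48.2% of all tested genes. When TMM was replaced by library totals it was above 0 also for Psmd1 (0.0037) and Psmd11 (0.026). Without BCAS mouse 1 it was above 0 also for Psmd10 (0.024). All BCAS values lay below all sham values for 19 genes (57.6%, background 22.7%), above them for 1 (Psma8, background 25.3%), and the groups overlapped for 13. The median log2 fold change was -0.21, against 0.018 over all tested genes. With library totals these medians were -0.13 and 0.095, so the estimates of all tested genes also stood higher in that fit.

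The count rested on individual mice. Without sham mouse 2 or without sham mouse 3 it was 0, although 7.39% and 6.58% of all tested genes were then lower, and without BCAS mouse 1 or BCAS mouse 3 it was 2, with 10% and 9.26% of all tested genes lower. Without BCAS mouse 2 it was 16, with 16.1% of all tested genes lower, and without sham mouse 1 it was 7, with 7.61%. The median kept its sign under all 17 alternatives, between -0.26 and -0.13. With library totals the count was 2 and 9.60% of all tested genes were lower, and with an offset for gene length it was 15 and 15.7% were lower.

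**Figure D2:**
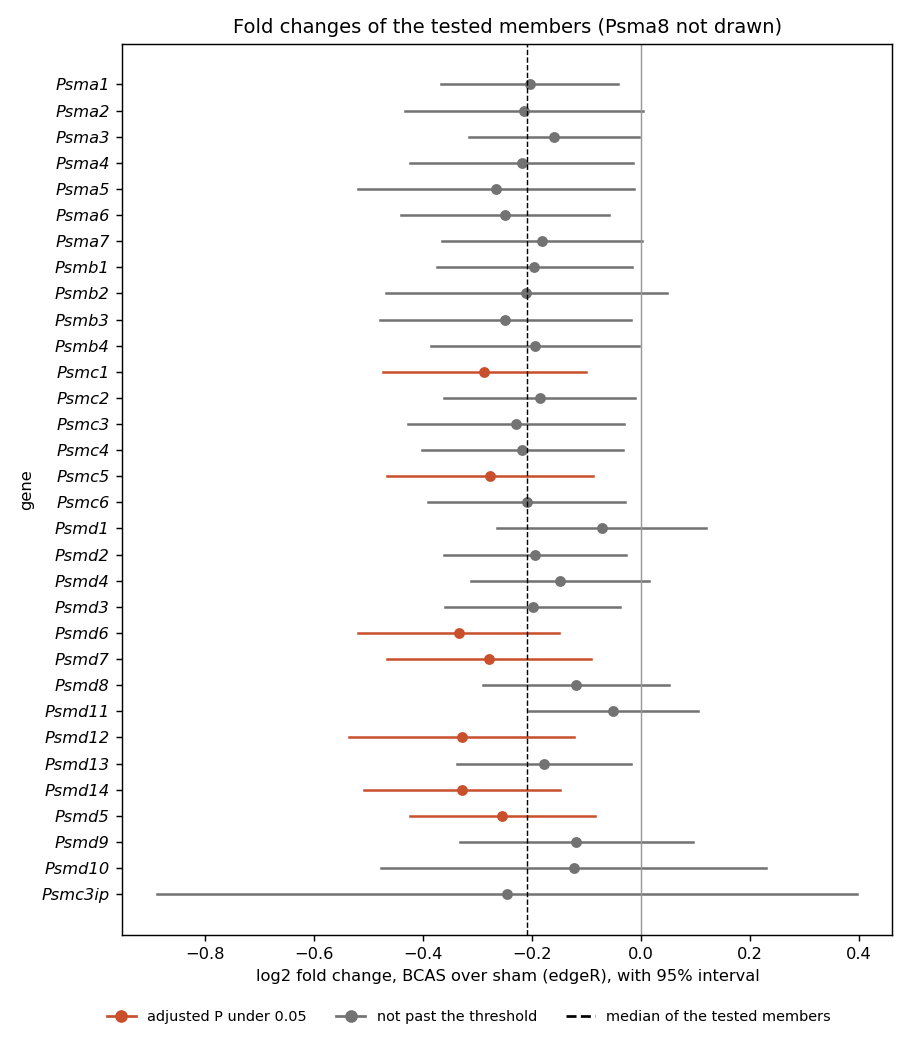
Log2 fold change of BCAS over sham (edgeR) for the 32 tested genes other than Psma8, with bars for the 95% interval, red for an adjusted P under 0.05, and a dashed line at the median of the tested members (-0.21). All 32 estimates lie below 0, from -0.33 to -0.05, and 7 are red.

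The lid of the 19S particle held the 3 largest falls. Psmd14, the deubiquitinase that cuts the ubiquitin chain from the substrate (ENSMUSG00000026914.15, chr2:61711694-61800376, mm10), had 76.2, 83.9 and 85.7 CPM in sham mice 1 to 3 and 65.6, 69.3 and 61.1 CPM in BCAS mice 1 to 3. All BCAS mice lay below all sham mice, and Psmd14 fell by 0.33 on the log2 scale (SE 0.08, edgeR, adjusted P = 0.0141). Psmd6, a structural lid subunit (ENSMUSG00000021737.4, chr14:14112174-14120984), had 67.3, 78.1 and 79.5 CPM in sham and 59.1, 61.0 and 58.3 CPM in BCAS mice. Its BCAS mice were close together and below sham mouse 1, the lowest sham animal, and it fell by 0.33 (SE 0.08, edgeR, adjusted P = 0.0146).

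Psmd12, another structural subunit of the lid (ENSMUSG00000020720.13, chr11:107479484-107504362), had 63.4, 67.3 and 69.2 CPM in sham and 47.7, 59.1 and 52.4 CPM in BCAS mice. BCAS mouse 2 came nearest to the sham mice, and the gene fell by 0.33 (SE 0.09, edgeR, adjusted P = 0.0243). Psmd7, the lid partner of Psmd14 (ENSMUSG00000039067.5, chr8:107580381-107588464), had 90.8, 96.3 and 104 CPM in sham and 77.8, 86.5 and 75.7 CPM in BCAS mice. The groups did not overlap, and it fell by 0.28 (SE 0.08, edgeR, adjusted P = 0.0317). Psmd14 and Psmd6 passed in 15 of the 17 alternatives, including all 11 that kept every mouse, and missed the threshold only without sham mouse 2 or sham mouse 3 (largest adjusted P 0.0610 for Psmd14 and 0.0663 for Psmd6). Psmd12 and Psmd7 passed in 11 of 17. With 1 mouse left out, Psmd12 passed only without BCAS mouse 2, and its adjusted P was 0.0507 to 0.0907 in the other 5 fits. Psmd7 passed without BCAS mouse 2 or sham mouse 1 and had 0.0761 to 0.120 without any one of the other 4 mice (edgeR). With library totals the adjusted P was 0.0562 for Psmd12 and 0.0679 for Psmd7 (edgeR).

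The other 4 lid genes did not pass with edgeR or limma-voom, and 1 of them, Psmd3, passed with DESeq2 (adjusted P = 0.0440). With edgeR Psmd3 passed without BCAS mouse 2 (0.0444), with RLE factors (0.0489) and with the length offset (0.0383), and Psmd13 with the length offset (0.0409). Psmd3 (log2 fold change -0.20, adjusted P = 0.0619, edgeR) and Psmd13 (-0.18, adjusted P = 0.0864, edgeR) had all BCAS mice below all sham mice. Psmd8 (-0.12) and Psmd11 (-0.05) overlapped. Psmd11, which is known to limit assembly of the 19S particle in some cells, had 52.0, 50.6 and 52.5 CPM in sham and 49.1, 49.0 and 51.6 CPM in BCAS mice, the smallest difference of the set (95% interval -0.21 to 0.10). Over the 8 lid genes the median was -0.24, with 4 lower, 6 without overlap and a summed CPM 14.6% lower in BCAS mice. Over all tested genes 13.2% were lower, and 22.7% had all BCAS values below all sham values.

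The ATPase ring of the base, which grips and unfolds the substrate, had 2 of 6 genes past the threshold and a median of -0.22. Of all tested genes, 13.2% were lower at this threshold. Psmc1 (ENSMUSG00000021178.9, chr12:100110154-100123405) had 126, 131 and 136 CPM in sham and 105, 118 and 99.2 CPM in BCAS mice. BCAS mouse 2 was the highest of its group but below all sham mice, and Psmc1 fell by 0.29 (SE 0.08, edgeR, adjusted P = 0.0281). Psmc5 (ENSMUSG00000020708.12, chr11:106256154-106263120), the gene of the highest per-length level, had 118, 125 and 131 CPM in sham and 98.7, 113 and 96.9 CPM in BCAS mice. It showed the same order of mice and fell by 0.28 (SE 0.08, edgeR, adjusted P = 0.0338). With 1 mouse left out, both passed only without BCAS mouse 2, and their adjusted P in the other 5 fits was 0.0567 to 0.103 for Psmc1 and 0.0543 to 0.121 for Psmc5 (edgeR). With library totals it was 0.0546 for Psmc1 and 0.0703 for Psmc5 (edgeR). Psmc3 (-0.23), Psmc4 (-0.22), Psmc6 (-0.21) and Psmc2 (-0.19) did not pass, with adjusted P of 0.0722 to 0.0997 (edgeR). Psmc3 (0.0355) and Psmc6 (0.0185) passed without BCAS mouse 2, Psmc4 (0.0431) without sham mouse 1, and all 3 with the length offset (0.0356 to 0.0439). Psmc4 and Psmc6 had no overlap between groups. The summed CPM of the ring was 15.3% lower in BCAS mice.

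None of the 3 remaining genes of the base passed with edgeR, although 1 (Psmd2) had an unadjusted P under 0.05, and 1 passed with DESeq2 and 0 with limma-voom. Psmd2 passed with edgeR without BCAS mouse 2 (adjusted P = 0.0453) and with the length offset (0.0435). Psmd2, a scaffold to which ubiquitin receptors and shuttles dock, had a log2 fold change of -0.19 (edgeR, adjusted P = 0.0757) and no overlap. Psmd4, a ubiquitin receptor, had -0.15 (edgeR, adjusted P = 0.151), also without overlap. Psmd1, the second large scaffold, had 93.6, 101 and 102 CPM in sham and 87.5, 104 and 90.1 CPM in BCAS mice. Here BCAS mouse 2 was the highest of all 6 animals, and the difference was -0.07 (95% interval -0.26 to 0.12).

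None of the 12 tested genes of the 20S core passed with edgeR, with adjusted P from 0.0506 to 0.195. Of the 8 alpha genes 5, and of the 4 beta genes 3, had an unadjusted P under 0.05, and 1 of the 12 passed with DESeq2 and 0 with limma-voom. The count rested on the mice and on the setting. Without BCAS mouse 2, 5 genes passed with edgeR, namely Psma1 (adjusted P = 0.0258), Psma2 (0.0284), Psma4 (0.0415), Psma5 (0.0429) and Psmb3 (0.0364), and without sham mouse 1 Psma6 (0.0451) and Psmb4 (0.0489) did. The 7 alpha genes of somatic cells lay between -0.27 and -0.16, namely Psma5 (-0.27), Psma6 (-0.25), Psma4 (-0.22), Psma2 (-0.21), Psma1 (-0.20), Psma7 (-0.18) and Psma3 (-0.16). Over the 17 alternatives Psma5 ranged from -0.36 to -0.18, Psma6 from -0.31 to -0.17, Psma4 from -0.28 to -0.14 and Psma2 from -0.31 to -0.14. Psma1 ranged from -0.26 to -0.13, Psma7 from -0.25 to -0.10 and Psma3 from -0.21 to -0.083. Psma6 was nearest to the threshold (edgeR, adjusted P = 0.0506), with 68.1, 72.5 and 82.4 CPM in sham and 63.1, 63.7 and 60.9 CPM in BCAS mice. Its BCAS values stayed within a narrow range below all sham values. It passed with RLE factors (adjusted P = 0.0399), the length offset (0.0273), a filter at a mean of 10 counts (0.0499) and halved counts (0.0486, all edgeR), and Psma1 passed with RLE factors (0.0478) and the length offset (0.0317). Psma1, Psma3 and Psma4 had no overlap either, while Psma2, Psma5 and Psma7 did overlap.

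The 4 structural beta genes lay between -0.25 and -0.19. Psmb3 had -0.25, Psmb2 -0.21, Psmb1 -0.20 and Psmb4 -0.19, with no overlap for Psmb1 and Psmb4. Over the 17 alternatives Psmb3 ranged from -0.33 to -0.16 and Psmb2 from -0.31 to -0.085. Psmb1 ranged from -0.24 to -0.12 and Psmb4 from -0.27 to -0.12. Without Psma8, the 11 genes of the 20S core had a median of -0.21, and the 17 genes of the 19S particle had the same median of -0.21. The test was passed by 0 of 11 and 6 of 17, where 13.2% of all tested genes were lower. These counts were 5 and 10 without BCAS mouse 2, 2 and 4 without sham mouse 1, 0 and 2 without BCAS mouse 1 or BCAS mouse 3, and 0 and 0 without sham mouse 2 or sham mouse 3. They were 2 and 12 with the length offset and 0 and 2 with library totals. A difference between the 2 particles was not tested. Among the chaperones, Psmd5 (ENSMUSG00000026869.12, chr2:34849734-34874968) ranged from 57.0 to 65.0 CPM in sham and from 50.2 to 52.4 CPM in BCAS mice, and fell by 0.25 (SE 0.07, edgeR, adjusted P = 0.0314). It passed also without sham mouse 1 or BCAS mouse 2, and had 0.0614 to 0.121 without any one of the other 4 mice (edgeR). With library totals its adjusted P was 0.0901, and without the low-count filter 0.0569 (edgeR). Psmd9 (-0.12) and Psmd10 (-0.12) did not pass. Without BCAS mouse 1 the estimate of Psmd10 was above 0 (0.024). Psmd10 had 10.2 CPM in BCAS mouse 1 and 15.3 CPM in BCAS mouse 2, the lowest and highest of its 6 values.

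**Figure D3:**
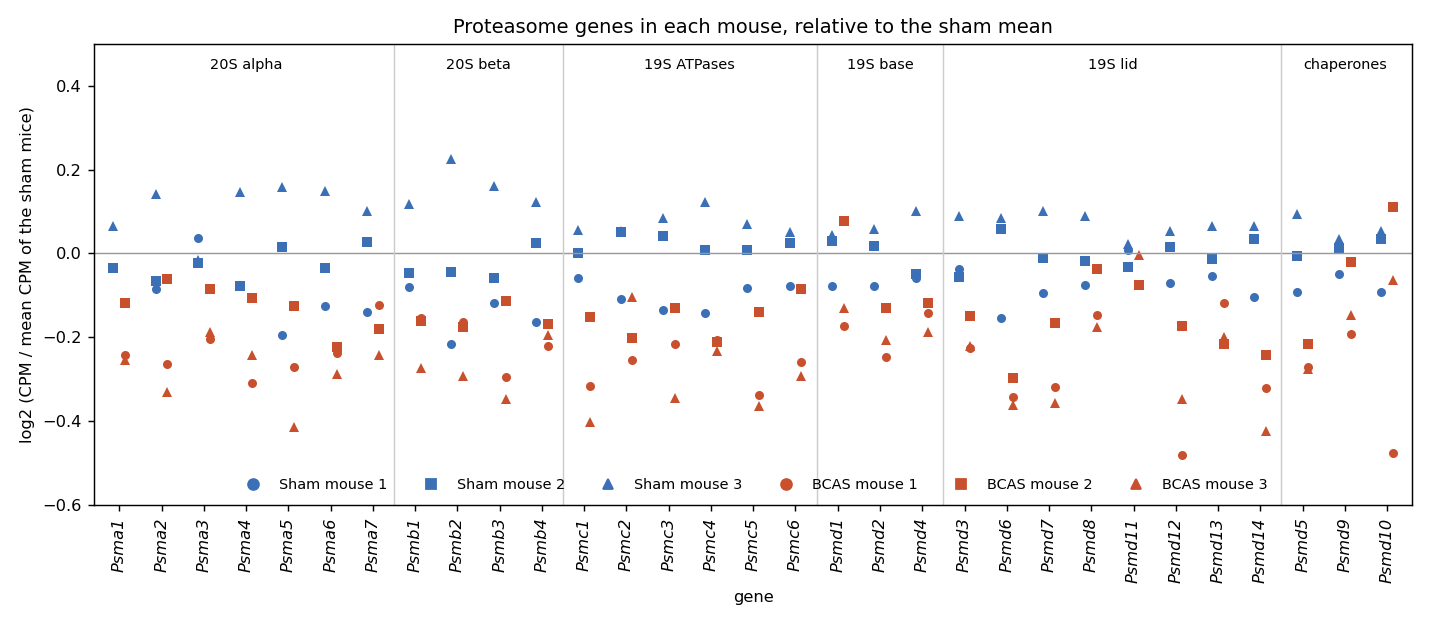
CPM of 31 proteasome genes (without Psma8 and Psmb11) in each mouse, as log2 of the ratio to the mean of the sham mice, grouped by place in the complex. Sham mouse 3 is mostly the uppermost symbol and sham mouse 1 the lowest sham symbol, and BCAS mouse 2 lies nearest to the sham mice.

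The mice differed in the same way for most of the genes. Over the 31 proteasome genes without Psma8 and Psmb11, the mean log2 CPM was 6.16, 6.25 and 6.34 in sham mice 1 to 3 and 6.01, 6.12 and 6.00 in BCAS mice 1 to 3. The highest BCAS mean thus lay just below the lowest sham mean. Sham mice 1 and 3 were further apart than these nearest animals of the 2 groups. Sham mouse 3 was the highest sham animal for 30 of 31 genes, and sham mouse 1 was the lowest for 27. BCAS mouse 2 was the highest BCAS animal for 24 genes, and BCAS mouse 3 the lowest for 19. As these genes move together within a group, they are not independent observations of the difference. The summed CPM of the 31 genes was 2615 ± 161 (SD, n = 3) in sham and 2258 ± 104 in BCAS mice, 13.7% lower, and the summed TPM was 3299 ± 139 and 2916 ± 78.5, 11.6% lower.

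The proportions among the subunits were then examined by expressing each gene relative to the mean of the 31 genes in the same mouse, a measure that does not depend on library scaling. The difference between groups was within 0.1 on the log2 scale for 26 of 31 genes, with a range from -0.12 to 0.16. Psmd12, Psmd6 and Psmd14 were at -0.12, and for these and for Psmd7 (-0.07) and Psmd5 (-0.04) all BCAS mice lay below all sham mice. Psmd9 (0.09), Psmd8 (0.09) and Psmd1 (0.13) had all BCAS mice above all sham mice. Psmd11 had the largest value, 0.16, but overlapped. In all, 23 of the 31 genes overlapped on this scale. The share of all tested genes without overlap on it was not computed, so the genes without overlap have no background here. These relative values follow from the same counts as the fold changes and were not tested, so genes with the largest falls come out below 0 and those with the smallest above it. Psmd14 had relative values of 0.09, 0.15 and 0.08 in sham and 0.03, 0.00 and -0.06 in BCAS mice. Psmd8 had 0.19, 0.16 and 0.18 in sham and 0.27, 0.27 and 0.25 in BCAS mice.

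Of the 6 catalytic subunit genes, which the rule leaves out, 1 fell and 3 rose. Psmb5, the chymotrypsin-like subunit of the constitutive core, had 59.5, 64.2 and 70.0 CPM in sham and 47.7, 45.4 and 41.5 CPM in BCAS mice and fell by 0.53 (SE 0.09, edgeR, adjusted P = 0.0026). Psmb6 (-0.07, adjusted P = 0.545, edgeR) and Psmb7 (-0.26, adjusted P = 0.0788, edgeR) did not pass. With library totals the estimate of Psmb6 was above 0 (0.0061). The 3 immunoproteasome genes rose, Psmb8 by 3.03, Psmb9 by 2.38 and Psmb10 by 0.49 on the log2 scale. Psmb10 missed the threshold without sham mouse 1 or BCAS mouse 3 (adjusted P of 0.0608 to 0.0725, edgeR). Psmb8 had 1.59, 1.62 and 1.49 CPM in sham and 8.03, 12.2 and 18.1 CPM in BCAS mice. The summed CPM of the 3 immunoproteasome genes was 22.3 to 27.8 in sham and 44.2 to 67.1 in BCAS mice, and that of the 3 constitutive genes was 160 to 186 and 139 to 150. In the genes of the activators, Psme1 (0.66) and Psme2 (0.63), which form the interferon-inducible cap of the 20S core, rose, while Psme3 (-0.20), Psme4 (0.05) and the inhibitor Psmf1 (0.06) did not pass. Psme1 missed the threshold without sham mouse 1 (adjusted P = 0.0545, edgeR).

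Other genes of the ubiquitin-proteasome pathway were counted from lists. Of 46 tested genes in all, 7 (15.2%) rose and 9 (19.6%) fell, where 18.0% of all tested genes were higher and 13.2% lower. Among 14 genes for proteins bound to the proteasome or carrying substrates to it, 7 fell and none rose, with a median of -0.28. These were the deubiquitinase Usp14 (-0.48), the shuttle genes Ubqln2 (-0.47), Rad23b (-0.42) and Ubqln4 (-0.31), Zfand5 (-0.37), the ubiquitin ligase Ube3c (-0.36) and the thioredoxin-like Txnl1 (-0.24). Usp14 had 127, 122 and 138 CPM in sham and 90.8, 107 and 78.7 CPM in BCAS mice. Rad23b and Ube3c passed with each mouse left out. Usp14, Ubqln2 and Zfand5 missed the threshold only without sham mouse 3 (adjusted P of 0.0529, 0.0833 and 0.0660, edgeR). Txnl1 and Ubqln4 passed only without BCAS mouse 2, with adjusted P of 0.0628 to 0.130 and 0.107 to 0.124 in the other 5 fits (edgeR). With library totals their adjusted P was 0.114 and 0.0837 (edgeR), Txnl1 had 0.0681 without the low-count filter, and Ubqln4 had 0.0502 with thinned counts. The remaining 7 did not pass with edgeR, among them the ubiquitin receptor Adrm1 (-0.13), the small lid subunit Sem1 (-0.05), whose symbol lies outside the rule, and the deubiquitinase Uchl5 (-0.37, adjusted P = 0.0565, edgeR). Uchl5 passed with DESeq2 (adjusted P = 0.0291) and limma-voom (adjusted P = 0.0420).

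None of 5 tested genes for assembly factors passed with edgeR (1 at an unadjusted P under 0.05, and 1 with DESeq2 or limma-voom), with Pomp at 0.09 and Psmg2 at -0.31 (edgeR, adjusted P = 0.0514). The E1 enzyme gene Uba1 fell by 0.29 (edgeR, adjusted P = 0.0353), but passed with 1 mouse left out only without BCAS mouse 2 (0.0567 to 0.121 in the other 5 fits), and with library totals its adjusted P was 0.0611. The ubiquitin genes Ubb (-0.28) and Rps27a (0.08) did not pass with edgeR, while Ubb passed with DESeq2 (adjusted P = 0.0097) and limma-voom (adjusted P = 0.0483). Rps27a ranged from 44.4 to 169 CPM over the 6 mice, with sham mouse 1 and BCAS mouse 2 far below the others. None of the 4 genes of p97 (Vcp), the unfoldase upstream of the proteasome, and its cofactors passed with edgeR, DESeq2 or limma-voom (1 at an unadjusted P under 0.05), and Vcp itself had -0.01.

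Among 7 regulators of proteasome transcription, Nfe2l1 had 320, 315 and 304 CPM in sham and 314, 301 and 289 CPM in BCAS mice, which overlapped (-0.05, adjusted P = 0.617, edgeR). With library totals its estimate was 0.021. The stress-responsive relative Nfe2l2 rose by 1.73 and its small partner Maff by 2.37, from 16.4 to 21.0 CPM in sham to 52.3 to 79.7 CPM in BCAS mice for Nfe2l2. The processing factors of Nfe2l1, Ddi2 (0.24) and Ngly1 (-0.07), did not pass, and neither did Mafg (0.15) and Mafk (0.24). The 3 genes with an antioxidant response element in the searched window stood at -0.33 (Psmd12), -0.21 (Psmc6) and -0.12 (Psmd9).

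**Figure D4:**
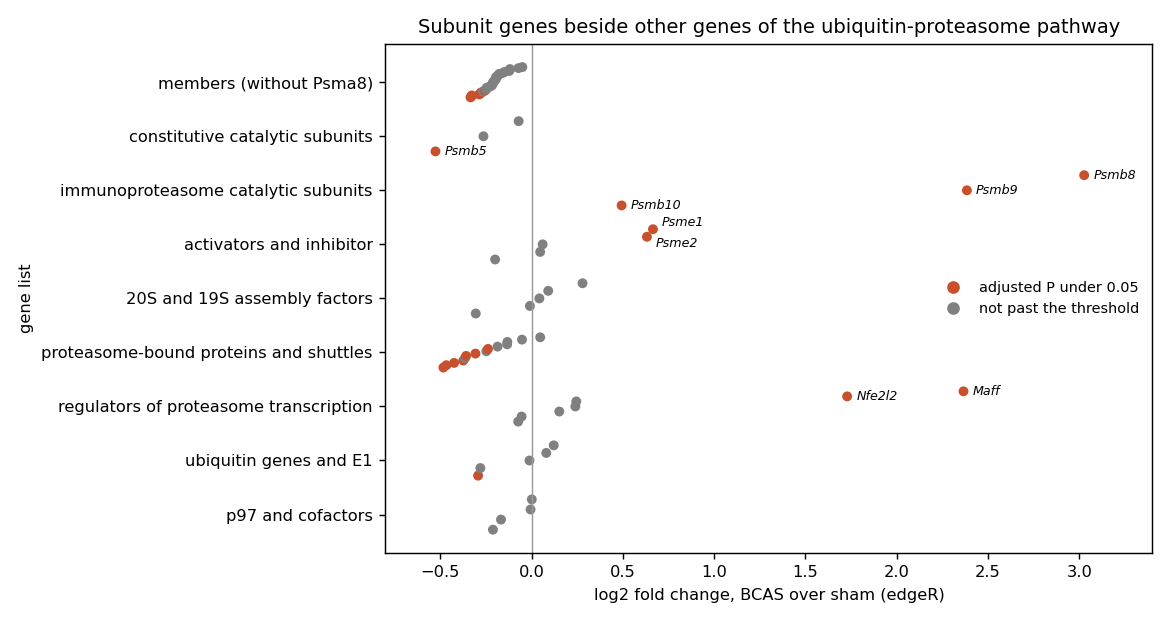
Log2 fold change of BCAS over sham (edgeR) for the 32 tested genes other than Psma8 (top row, members) and for the genes of 8 pathway lists, red for an adjusted P under 0.05 and grey otherwise. The members lie in a narrow range from -0.33 to -0.05, while the immunoproteasome genes, Psme1, Psme2, Nfe2l2 and Maff lie to the right.

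Markers of several cell types moved with the groups. The mean log2 CPM of the 10 neuron markers was 9.08, 9.12 and 9.18 in sham mice 1 to 3 and 8.57, 8.74 and 8.31 in BCAS mice 1 to 3, with BCAS mouse 2 nearest to the sham mice. The median log2 fold change of the neuron markers was -0.59, that of the proteasome members -0.21. Of 6 interneuron markers 5 were lower, and of 5 markers of hippocampal principal neurons 2 were lower. None of 6 oligodendrocyte markers passed with edgeR or limma-voom (1 with DESeq2, and 1 at an unadjusted P under 0.05), and 4 of 6 endothelial and 2 of 3 tested lymphocyte markers were higher. The summed CPM of 5 choroid plexus markers ranged from 40.3 in BCAS mouse 2 to 5918 in BCAS mouse 1, overlapped between groups, and 0 passed with edgeR, DESeq2 or limma-voom, or at an unadjusted P under 0.05. The part of these lists in the lower proteasome values was not tested.

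**Figure D5:**
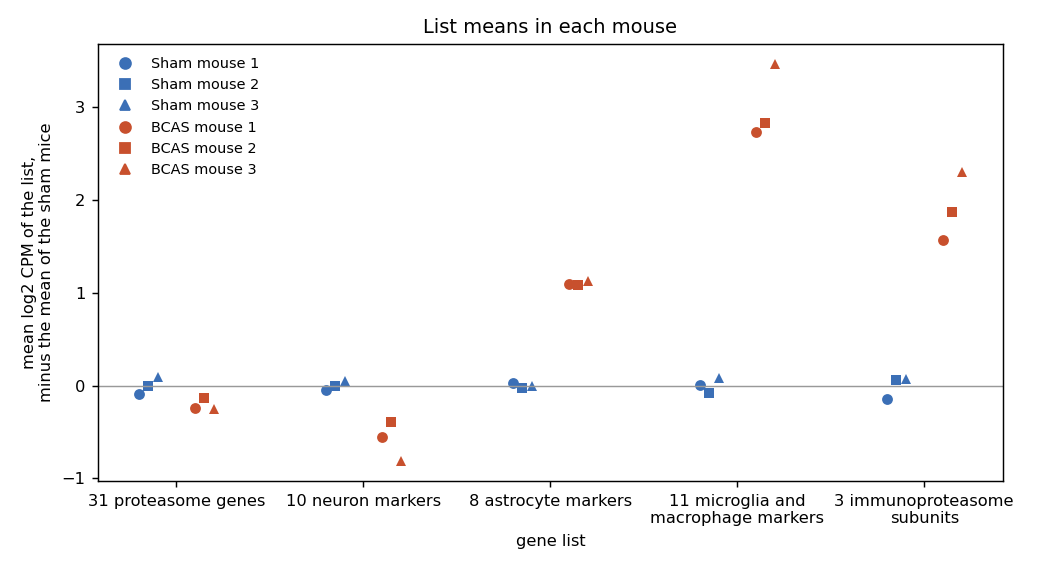
Mean log2 CPM of 5 gene lists in each mouse, minus the mean of the sham mice. BCAS mice lie slightly below the sham mice for the 31 proteasome genes, further below for neuron markers, and above for astrocyte markers, microglia and macrophage markers and the 3 immunoproteasome subunits.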

How the data were processed

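Counts per gene from 6 libraries were used, as deposited by the authors without normalization. Per the processing notes and the study's methods, paired reads were trimmed with Trim Galore, aligned to mm10 with HISAT2 and counted with featureCounts 1.6.3. The file headers name featureCounts 2.0.3 with GENCODE vM20, mates counted separately, strand ignored and multiply aligned reads not counted, so reads of overlapping genes on opposite strands cannot be told apart. Column names inside the BCAS tables are numbered 2 to 4, and mice are numbered here by the labels. Symbols came from a table matched by gene ID (54723 of 54752).

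Differences were tested with edgeR 4.0.16 (R 4.3.3; filterByExpr, TMM, quasi-likelihood test) with the group as the only term, and P values were adjusted over 18617 genes by Benjamini-Hochberg. The thresholds were an adjusted P of 0.05 and, for a second count, an absolute log2 fold change above 1. The log scale used a prior count of 2. The common biological coefficient of variation was 0.161. Intervals are 95% intervals of the fit. The libraries came from separate mice. The script was run on simulated data to check that it works. The simulated variation was smaller than that of these mice, so the run does not measure power or false calls here. TPM were computed from counts and the exonic lengths in the files.

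All genes of the rule are named. Values per mouse are given for the 6 largest falls that passed, for the highest and lowest per-length levels and for genes the filter removed, and for further genes chosen after their values were seen. Genes of the pathway lists are named where they passed or serve as a comparison. Some genes of these lists are counted but not reported here by name. The members and lists were chosen with earlier results of these data known. Paaf1 of the assembly list had no matched symbol and was not analysed here. Alternatives were DESeq2 1.42.0, limma-voom 3.58.1, RLE factors, library totals, 2 other filters (1 count in all, or a mean of 10), counts halved or thinned to the smallest total, an offset for gene length, a replicate block with and without that offset, and each mouse left out. Promoter windows are from RefSeq.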

Additional observations from a re-analysis of the deposited data

How the results depend on the processing

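The count of 7 genes lower in BCAS mice became 2 with library totals, 15 with the length offset and 3 with the replicate block, while 9.60%, 15.7% and 9.40% of all tested genes were lower in these fits, against 13.2%. Leaving out 1 mouse at a time gave 0 to 16. All other alternatives gave 6 to 10. No alternative gave a gene past both thresholds. The median of the members ranged from -0.26 to -0.13. It was -0.13 with library totals, where the median over all tested genes was 0.095, against 0.018 in the main fit. The number of genes with all BCAS values above the sham values was 0 with counts halved, because Psma8 did not pass the filter. Among single genes, the estimate turned positive with library totals for Psmd1 (0.0037), Psmd11 (0.026), Psmb6 (0.0061) and Nfe2l1 (0.021), and without BCAS mouse 1 for Psmd10 (0.024), none past the threshold in any of these fits. Beyond the constructions named, the cause was not tested.

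The replicate numbers were not taken as pairs. The correlations of the deviations of same-numbered mice were 0.036, -0.31 and -0.16, so not every mouse correlated best with its own number, and the block, which lowered the count to 3 (7 with the length offset), blocks on a number only. The adjusted P under the block was 0.0563 for Psmc1, 0.0583 for Psmc5, 0.0706 for Psmd5 and 0.0638 for Psmd7. Among the pathway genes it was 0.0724 for Txnl1, 0.0597 for Ubqln4 and 0.0690 for Uba1, and under the block with the length offset 0.0510 for Txnl1 and 0.0550 for Uba1. These are the calls of the members and pathway genes that were lost under either block. Among the members, only Psma8 and Psmb11 had counts near the floor of 3, which corresponds to 0.0875 to 0.0995 CPM.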
